A study of Rattus norvegicus with 2 samples.

Results

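The 5 alpha-defensin genes Defa5, Np4, RatNP-3b, Defa11 and Defa10 and the cathelicidin gene Camp were followed through granulocyte progenitors, neutrophil stages and the other cell types of rat suture tissue. They are 6 of the 22154 genes listed in at least 1 of the 2 deposited count tables, and were taken by name, whatever their values. The zygomatic maxillary suture is the fibrous joint between cheek bone and upper jaw, and its cells were read singly on the BD Rhapsody system, in which barcoded beads tag each captured mRNA molecule. In the distraction library, a W-shaped nickel-titanium spring (wire of 0.4 mm, 20 g of force at the start) widened the suture of 4-week-old rats over 7 days. In the sham library the rats, of the same age, had the holes drilled and no spring. Each group is 1 library, so no difference between them has a replicate check and no test was made. How many animals went into each library is not stated in the sources used.

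Defensins are short cationic peptides, held by disulfide bonds, that damage microbial membranes. Neutrophils of rats store alpha-defensins in their primary (azurophil) granules, which are filled first, in promyelocytes, while Mpo, Elane and the other granule proteases are made. Cathelicidin, whose mature rat peptide is called CRAMP, is stored in the secondary (specific) granules together with Ngp and Lcn2, which are filled later. Tertiary granules, with Mmp8 and Mmp9, follow, and the mature neutrophil leaves the marrow with most granule transcripts gone. RefSeq lists ratNP-1 and ratNP-2 as other names of Defa5, and NP-3 as another name of RatNP-3b. The members are close paralogs: how reads that match several of them were counted is not stated in the sources used, so the split of UMIs among them is uncertain.

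The start regions of the genes are shown because the defensins shared 1 course over the stages and Camp had another. RefSeq's promoter table for the build GRCr8 held 4 of the 6 genes, and Defa5 and Defa10 had no entry. Each sequence below is the 250 bases before the start of the gene, 5′ to 3′ on the strand of the gene (the minus strand for each). Capitals mark matches on either strand to TTGCNNAA (a C/EBP motif), TGTGGT (RUNX), GAGGAA (PU.1), CCAAT (the CCAAT box) or TATAAA (the TATA box).
Np4 (chr16:77199643-77199892): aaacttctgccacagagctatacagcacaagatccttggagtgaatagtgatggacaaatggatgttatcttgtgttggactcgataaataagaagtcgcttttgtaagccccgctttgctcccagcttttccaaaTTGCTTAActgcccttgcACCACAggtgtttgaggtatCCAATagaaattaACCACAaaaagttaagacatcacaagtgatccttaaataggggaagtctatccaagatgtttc
RatNP-3b (chr16:77248978-77249227): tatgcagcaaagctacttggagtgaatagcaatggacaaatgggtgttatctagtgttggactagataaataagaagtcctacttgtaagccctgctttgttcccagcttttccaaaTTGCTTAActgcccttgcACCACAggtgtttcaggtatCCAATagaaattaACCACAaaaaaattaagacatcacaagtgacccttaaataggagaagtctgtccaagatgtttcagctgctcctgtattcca
Defa11 (chr16:77238042-77238291): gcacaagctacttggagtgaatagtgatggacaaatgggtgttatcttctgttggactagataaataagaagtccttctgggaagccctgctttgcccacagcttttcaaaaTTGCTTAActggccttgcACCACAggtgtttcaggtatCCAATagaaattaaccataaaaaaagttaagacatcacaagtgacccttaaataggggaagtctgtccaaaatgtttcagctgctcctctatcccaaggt
Camp (chr8:118721999-118722248): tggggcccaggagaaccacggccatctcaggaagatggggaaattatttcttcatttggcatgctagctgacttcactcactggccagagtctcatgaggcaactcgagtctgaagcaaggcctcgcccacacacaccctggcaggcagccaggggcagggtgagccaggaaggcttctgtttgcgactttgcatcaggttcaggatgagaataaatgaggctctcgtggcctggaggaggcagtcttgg

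The 3 defensin windows were 90.8% to 92.3% identical over their aligned bases, which leaves out the unmatched ends. Each held TTGCTTAA, then ACCACA, then CCAAT in the same order, with TTGCTTAA beginning 114 bases before the start of Np4, 133 before RatNP-3b and 138 before Defa11. Np4 and RatNP-3b held ACCACA again downstream of the CCAAT box. ACCACA is the RUNX motif read on the other strand. The Camp window held none of the 5 motifs. Over the 33469 RefSeq windows of the same length, 9.22% held TTGCNNAA, 14.5% TGTGGT, 23.3% GAGGAA, 34.0% CCAAT and 12.9% TATAAA. A match describes the letters and is not a binding site.

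Cells were assigned to types by marker gates. A marker counted as on in a cell with at least 2 UMIs (unique molecular identifiers, each standing for 1 captured molecule) and at least 1 per 10000 of the cell's UMIs. The progenitor gate took cells with at least 2 primary granule markers (Mpo, Elane, Prtn3, Ctsg, Ms4a3, Prss57) and neither 2 secondary granule markers nor a tertiary one. The early gate took cells with at least 2 secondary granule markers (Ngp, Lcn2, Olfm4, Chi3l1, Cd177, Ltf) that still held a primary one. It set no limit on tertiary or mature markers, whereas the secondary gate allowed no tertiary marker. The secondary, tertiary, late and mature gates followed by loss of primary markers, gain of tertiary markers (Mmp8, Mmp9, Mmp25, Padi4, Retnlg), gain of at least 2 mature markers (Ccl6, Il1r2, Cxcr2, Csf3r and Il1b among them) and loss of secondary markers. No member served as a marker, but the gate rule was settled with the members' levels in view. Filtering left 4037 cells in distraction and 5183 in sham, at median depths of 4161 and 3033 UMIs. The progenitor gate held 124 and 99 cells in the distraction and sham library, the early gate 154 and 71, secondary 103 and 96, tertiary 145 and 96, late 405 and 242, and mature 330 and 181. The libraries shared 22 cell barcodes. Of the secondary markers, Ltf had at most 1 UMI in each of the 6 gates.

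The alpha-defensins peaked in the early gate, where the 5 together made up 171068 (95% interval 170588 to 171549) CPM in distraction and 164559 (163805 to 165316) in sham. CPM, counts per 1000000, are the summed UMIs of a gate scaled to that total, and the exact Poisson intervals cover counting error only. RatNP-3b reached 69465 CPM (69159 to 69772) in distraction and 63877 (63408 to 64349) in sham. Defa5 stood at 57048 (56771 to 57326) and 53604 (53174 to 54037), and Np4 at 43798 (43555 to 44042) and 46478 (46077 to 46881). The level of the 5 summed genes in the early gate was 4.13 times that of the secondary gate in distraction and 3.80 times in sham. In both libraries Defa5, Np4, RatNP-3b and Defa11 were highest in the early gate, followed by progenitor, secondary and tertiary. These levels sum over all cells of a gate, and the gates differed in make-up. The tertiary marker Mmp8 stood at 132 CPM in distraction and 228 in sham in the early gate. In the secondary gate it stood at 24.2 and 16.8, so the step from early to secondary is not a clean order in time. At least 1% of UMIs came from the defensins in 72 of 124 and 41 of 99 progenitor cells. In the early gate this held for 132 of 154 and 61 of 71 cells. The highest share in a single cell was 45% and 42.0% in the progenitor gate and 40.8% and 36.7% in the early gate.

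Defa5 began high in the progenitor gate, at 31526 CPM in distraction and 22876 in sham, then peaked in the early gate. From there it fell to 9859 and 11797 CPM in the secondary gate, 4389 and 1383 in the tertiary gate, 543 and 321 in the late gate, and 309 and 289 in the mature gate. The early-gate level was 185-fold above the mature-gate level in both libraries. That mature-gate level was close to the 240 CPM of the B cell gate in both libraries, so the fold depends on this low level. Np4 followed the same course, with 26587 and 20391 CPM in the progenitor gate and 234 and 201 in the mature gate. RatNP-3b began at 34976 and 24693 CPM and ended at 403 and 351. The plot of gene levels by gate shows the parallel descent of the 3 genes and the different course of Camp.

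**Figure D1:**
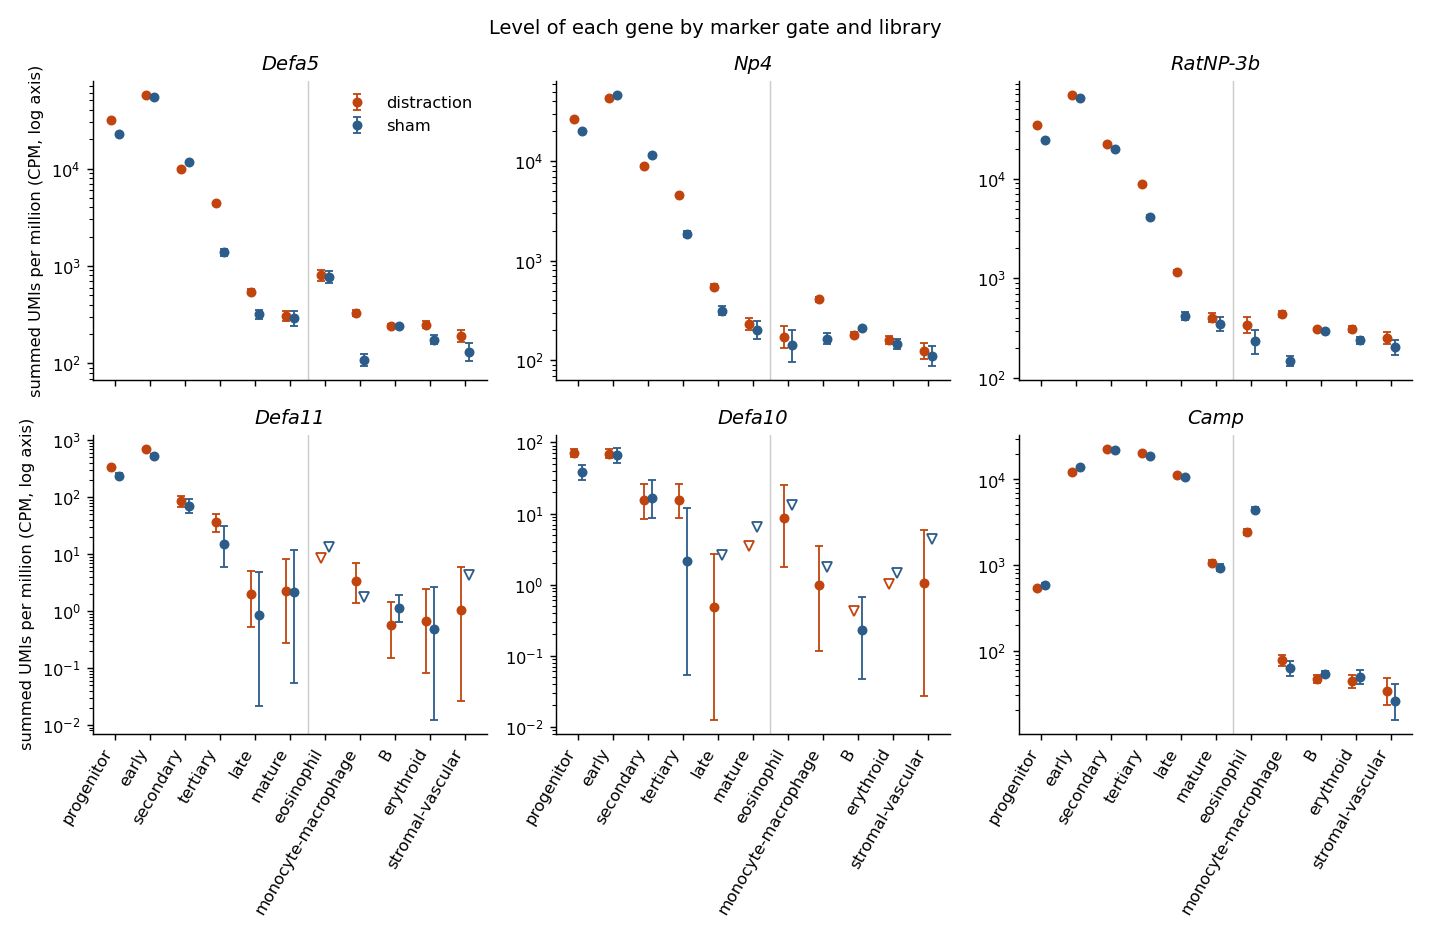
Summed UMIs as CPM (log axis) of each gene in 11 marker gates, in the distraction (orange) and sham (blue) library; bars are exact 95% Poisson intervals and open triangles mark the level that 3 counts would give where none was counted. The 5 alpha-defensins are highest in the progenitor and early gates and Camp in the secondary gate, at 22864 and 22340 CPM.

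The 2 minor defensins had far lower UMI counts. Defa11 followed the order of the abundant ones down to the tertiary gate. It stood at 335 and 236 CPM in the progenitor gate, 687 and 534 in the early gate, 84.9 and 69.9 in the secondary gate, and 36.0 and 14.8 in the tertiary gate. The late and mature gates held 1 to 4 Defa11 UMIs in each library. Defa10, which RefSeq lists in GRCr8 as a miscellaneous RNA, had 240 and 64 UMIs in the progenitor gate, or 70.2 and 37.9 CPM. Its early-gate level was 69.6 CPM (60.3 to 80.0) in distraction and 65.8 (51.6 to 82.8) in sham, so the order of progenitor and early gates was not resolved for it in distraction. In the secondary gate Defa10 stood at 15.4 and 16.8 CPM and in the tertiary gate at 15.7 and 2.11, where 10 of its 14 UMIs in distraction came from 1 cell. No Defa10 UMI was found in the mature gate of either library, which allows up to 3.43 CPM in distraction and 6.43 in sham at 3 counts. The 4 other listed genes named Defa had 6 UMIs in all in distraction and 4 in sham. The 19 listed beta-defensin genes, which epithelia are known to express, had 297 and 267 UMIs together. Of these, Defb14 had 181 and 126 and Defb52 had 91 and 87. In the monocyte-macrophage gate Defb14 stood at 35.4 and 30.6 CPM and Defb52 at 29.1 and 6.46.

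Camp peaked later. It stood at 535 CPM (510 to 560) in distraction and 583 (547 to 621) in sham in the progenitor gate and 12300 and 13989 in the early gate. The secondary gate was the highest, at 22864 (22554 to 23177) and 22340 (21995 to 22689), 1.86 times the early-gate level in distraction and 1.60 times in sham. It then fell to 20609 and 18740 CPM in the tertiary gate, 11224 and 10556 in the late gate, and 1061 and 927 in the mature gate. Camp thus ended above its progenitor-gate level in both libraries, and each of the defensins ended below its own.

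Within single cells the defensins took up to 45% of all UMIs of a cell in the progenitor gate of distraction and 42.0% in sham. The median early-gate cell gave 18.3% of its UMIs to the 5 defensins in distraction and 14.97% in sham, and 1.51% and 1.47% to Camp. A cell was counted as rich in defensins, or in Camp, when at least 1% of its UMIs came from them. By that rule 72 of 124 progenitor cells in distraction and 41 of 99 in sham were rich in defensins, but 1 cell in each library was rich in Camp. In the early gate, 132 of 154 cells and 61 of 71 were rich in defensins, 102 and 44 were rich in Camp, and 89 and 42 were rich in both. In the secondary gate, 88 of 103 cells and 83 of 96 were rich in Camp, and 34 and 35 were rich in defensins. In the tertiary gate, 117 of 145 and 71 of 96 cells were rich in Camp and 14 and 8 in defensins. Cells near the 1% line, between 0.5% and 2%, numbered 10 and 5 in the early gate and 11 and 17 in the secondary gate for the defensins. For Camp they were more, with 67 and 27 in the early gate, 22 and 24 in the secondary gate, 85 and 47 in the tertiary gate, and 214 and 142 in the late gate, where 131 and 85 cells were rich in Camp. The counts of Camp-rich cells therefore depend on where the line is drawn. The plot of defensin against Camp share shows both shares for each cell by stage.

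**Figure D2:**
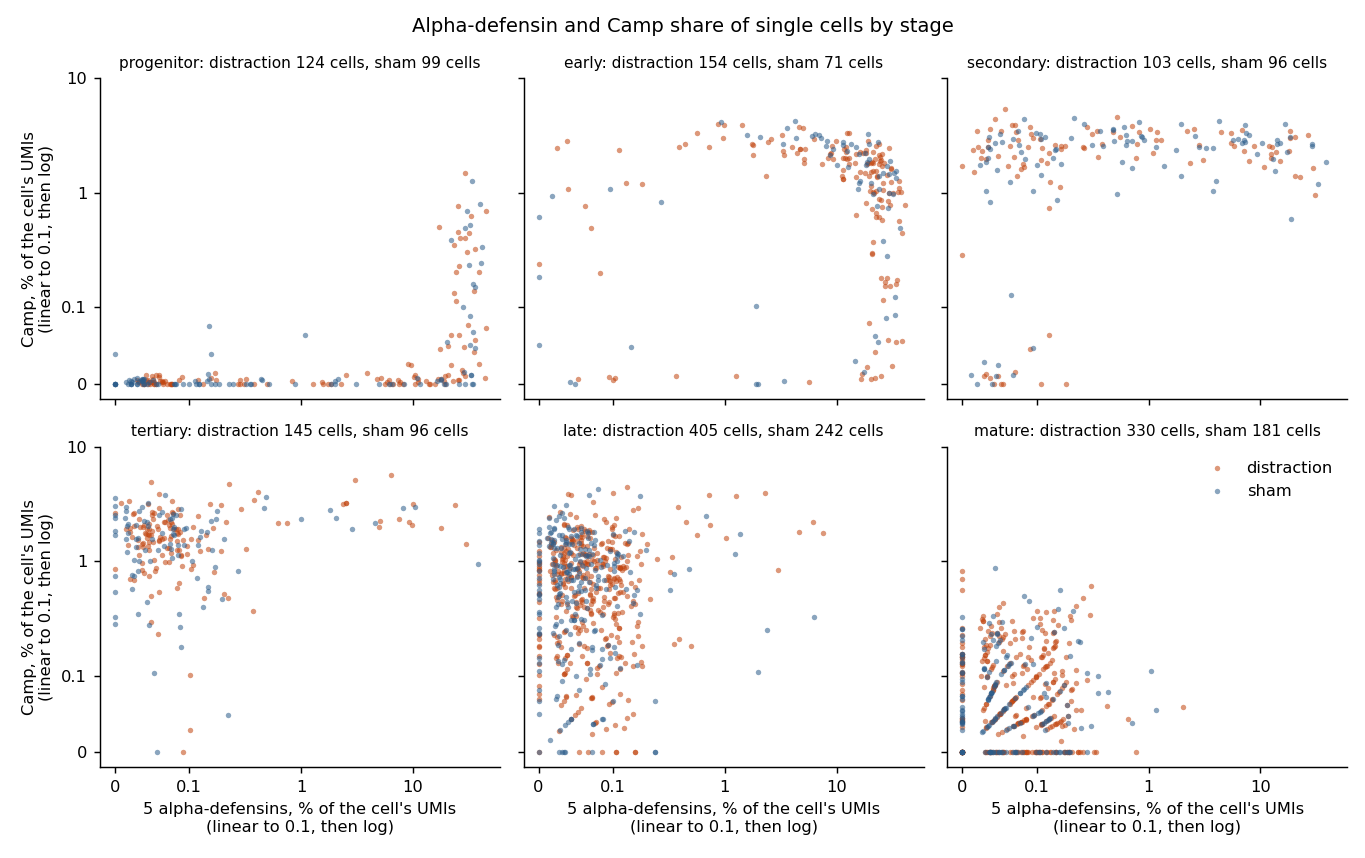
Share of each cell's UMIs from the 5 alpha-defensins (x axis) and from Camp (y axis), both in percent, linear up to 0.1 and logarithmic above, by stage; each point is a cell of the distraction (orange) or sham (blue) library. Progenitor cells spread along the x axis with Camp near 0, early cells lie in the upper right, and in the secondary and tertiary gates most cells have Camp above 1% while the defensin share spreads down to 0.1% and below.

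The defensins varied together among cells of 1 gate, and Camp varied less closely with them. Over the 154 early-gate cells of distraction, Pearson's r on log2 of UMIs per 10000 plus 1 was 0.953 for Defa5 and Np4 and 0.928 for Defa5 and RatNP-3b. Over the 71 early-gate cells of sham it was 0.966 and 0.941. For Defa5 and Camp it was -0.04 and 0.219. In the progenitor gate Defa5 and Camp had an r of 0.569 and 0.540. These values describe cells that share a library and its depth.

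The progenitor gate held cells of both kinds, rich and poor in defensins, and they differed in other genes. The 72 rich and 52 poor cells of distraction had a median of 26166 and 35502 UMIs, and the 41 and 58 of sham had 6659 and 23129. Mpo, the myeloperoxidase gene, stood at 10468 CPM in the rich and 7873 in the poor cells of distraction and at 8901 and 8403 in sham. Its median over cells was 111 and 59.7 UMIs per 10000 in distraction and 75.1 and 62.8 in sham. By CPM, Elane, Prtn3 and Ctsg were higher in the rich cells of distraction and lower in those of sham. Elane stood at 3841 and 3232 CPM in distraction and at 2579 and 2807 in sham, where its median was 10.7 and 7.16 UMIs per 10000. Ctsg stood at 9156 and 7685 CPM, and at 5972 and 8139. Gusb, also a primary granule gene, was lower in the rich cells of both, at 127 and 190 CPM and at 86.4 and 150. Ms4a3, a membrane protein gene of committed granulocyte and monocyte progenitors, stood at 904 CPM in the rich and 216 in the poor cells of distraction, and at 591 and 181 in sham. Serpinb1a, an inhibitor of neutrophil proteases, stood at 5618 and 1242 CPM in distraction and 4639 and 1133 in sham. Cd63, a granule membrane gene, was at 1568 and 504 CPM, and at 1584 and 622.

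Fcnb, the gene of ficolin B, went the other way, with 16.7 CPM in the rich and 1960 in the poor cells of distraction and 64.3 and 1876 in sham. Irf8, a transcription factor of the monocyte and dendritic lines, was at 0.577 and 60.5 CPM in distraction and 2.01 and 73.9 in sham. S100a8, a calcium-binding protein gene of neutrophils, was at 8921 and 325 CPM in distraction and 13894 and 191 in sham. These genes were picked partly after their values were seen, and the cells were split by the members themselves, so the values are a description.

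The proportions of the 3 abundant defensins shifted with stage. In the progenitor gate there were 1.11 RatNP-3b UMIs per Defa5 UMI in distraction (1.10 to 1.12) and 1.08 in sham (1.06 to 1.09), and in the early gate 1.22 and 1.19. In the secondary gate there were 2.28 (2.22 to 2.33) and 1.69 (1.64 to 1.73), and in the tertiary gate 2.01 (1.93 to 2.09) and 3.01 (2.75 to 3.29). From the early to the tertiary gate RatNP-3b thus fell less steeply than Defa5 in both libraries, though between the secondary and tertiary gates of distraction it fell more. In the late gate there were 2.16 and 1.32, and in the mature gate 1.30 and 1.21. In the gate of B cells, which should lack the defensins, there were 1.28 and 1.23. The mature-gate values, and the late-gate value of sham, were thus near that proportion, and the reason was not tested. In the tertiary gate of sham, 1 cell held 718 of the 1970 RatNP-3b UMIs and 106 of the 655 Defa5 UMIs. Np4 per Defa5 moved less, from 0.843 and 0.891 in the progenitor gate to 1.05 and 1.35 in the tertiary gate.

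**Figure D3:**
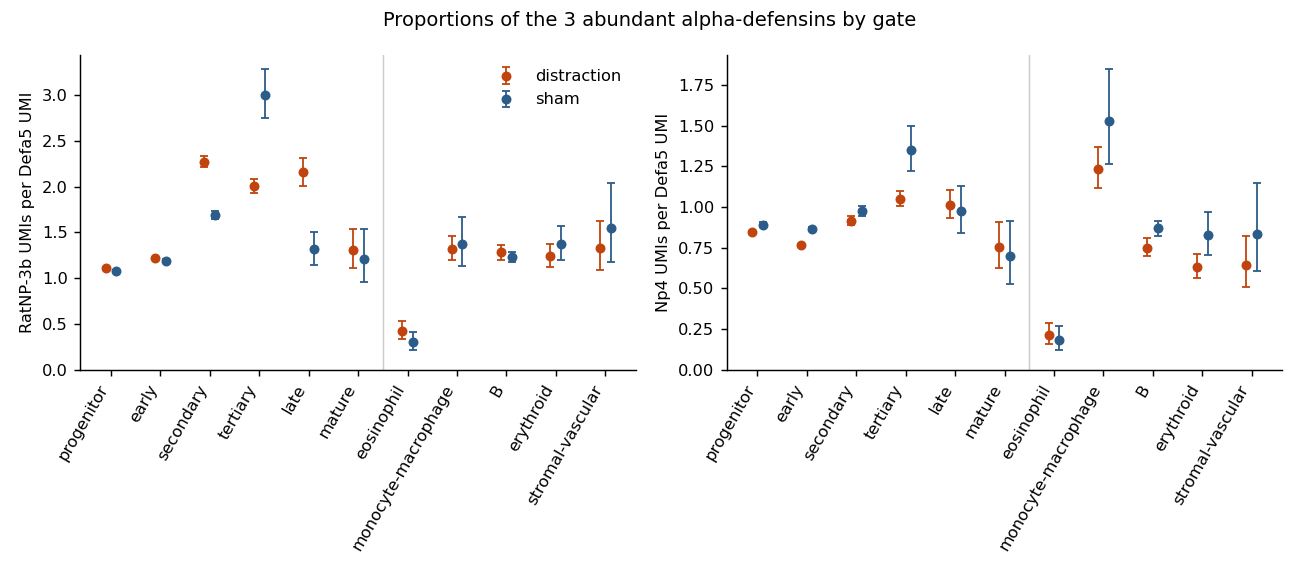
RatNP-3b UMIs (left) and Np4 UMIs (right) per Defa5 UMI in 11 marker gates, distraction in orange and sham in blue, with 95% intervals from the counts. RatNP-3b per Defa5 lies between 1.69 and 3.01 in the secondary and tertiary gates against 1.08 to 1.22 before them, and both proportions are lowest in the eosinophil gate.

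Some cells were led by 1 defensin. Among cells with at least 15 UMIs of 1 of the 3 genes, that is 369 in distraction and 276 in sham, RatNP-3b exceeded 3 times each of the others in 24 and 9 cells. These were 9 of 141 such cells in distraction and 2 of 62 in sham in the early gate, 7 of 43 and 4 of 50 in the secondary gate, and 4 of 20 and 1 of 10 in the tertiary gate. The rule of 15 UMIs and 3 times was chosen after the values were seen. Np4 led in 8 and 12 cells, of which 5 and 5 were in the progenitor gate and 1 and 2 in the monocyte-macrophage gate. The monocyte-macrophage cell of distraction held 336 Np4, 6 Defa5 and 36 RatNP-3b UMIs beside 26 of Vcan, a monocyte gene. A sham cell of that gate held 91 Np4, 5 Defa5 and 4 RatNP-3b UMIs beside 52 of Vcan. An ungated sham cell held 236 Np4, 4 Defa5 and 2 RatNP-3b UMIs beside 30 of Vcan. These cells are examples, and Vcan ranged from 0 to 68 UMIs over all cells led by Np4. The cells with the most Np4, 477 UMIs in distraction and 435 in sham, were in the progenitor gate. They held no Vcan UMI and 553 and 576 of Mpo. Defa5 led in 6 and 9 cells, of which 5 and 4 were in the eosinophil gate.

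The eosinophil gate (at least 2 of Epx, Prg2 and Prg3, the eosinophil granule proteins) held 45 cells in distraction and 44 in sham, under the 50 cells set for a ratio between libraries. Camp stood there at 2435 CPM (2274 to 2605) in distraction and 4425 (4155 to 4707) in sham, and at 46.4 and 53.4 CPM in the B gate. At least 10 Camp UMIs were present in 18 of 45 cells (40.0%, exact binomial 95% interval 25.7% to 55.7%) and in 26 of 44 (59.1%, 43.2% to 73.7%). In those 18 cells Ngp, which accompanies Camp in neutrophils, had 4 UMIs in all beside 806 of Camp, and in the 26 cells 8 beside 982. Other neutrophil markers were mixed over the whole gate. Retnlg stood at 688 and 1159 CPM against 8.25 and 6.04 in the B gate. Olfm4 stood at 478 and 903 CPM against 8.67 and 5.505. Lcn2 (37.4 and 35.3 CPM against 43.1 and 38.7) and S100a8 (322 and 423 against 401 and 353) were near the B-gate level. Cxcr2 had no UMI in the gate in either library. Their part in the Camp level was not tested. The 18 and 26 cells were shallower than the rest of the gate, with a median of 2822 and 2113 UMIs against 8676 and 5139.

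Defa5 was in excess of the other defensins in some cells of the same gate. At least 10 Defa5 UMIs were present in 6 cells of each library. Those of distraction held 176 Defa5, 8 Np4 and 12 RatNP-3b UMIs together, and those of sham 122, 2 and 3. These cells were picked for Defa5, so its excess in them follows in part from the choice. At least 10 Camp UMIs were present in 5 of these 6 cells in distraction and in 6 of 6 in sham. Over the whole eosinophil gate there were 0.216 Np4 UMIs per Defa5 UMI in distraction (0.160 to 0.286) and 0.183 in sham (0.121 to 0.268), below the 0.7503 and 0.868 of the B gate. The same 6 cells held 176 of the gate's 278 Defa5 UMIs in distraction and 122 of 175 in sham. The intervals do not cover the spread between such few cells. The gate was made from 3 of the 7 listed eosinophil, basophil and mast cell markers after the values had been seen.

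**Figure D4:**
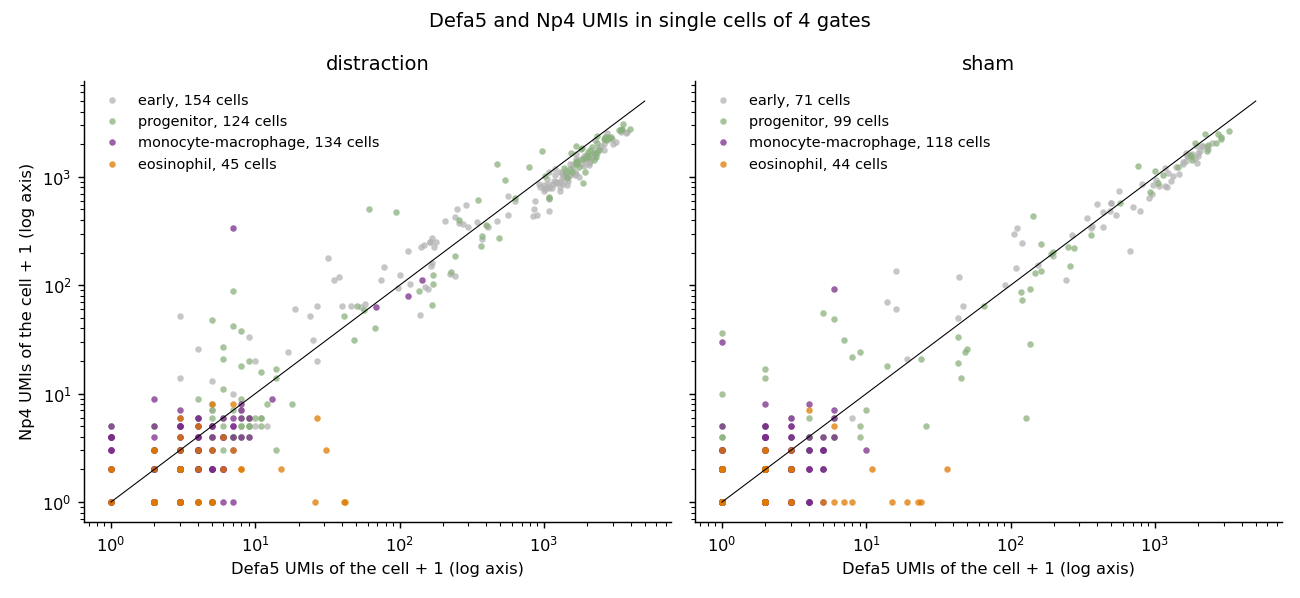
Defa5 UMIs plus 1 (x axis) against Np4 UMIs plus 1 (y axis) of single cells in 4 gates, both on log axes, for the distraction and the sham library; the line marks equal counts. Early and progenitor cells follow the line, some eosinophil-gate cells lie far to its right with 10 to 41 Defa5 UMIs, and single monocyte-macrophage cells lie above it with 336 and 91 Np4 UMIs.

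The other cell types held a low level of the abundant members. In the B gate (1255 and 2662 cells), which should lack them, Defa5 stood at 240 CPM in both libraries, Np4 at 180 and 208, RatNP-3b at 308 and 296, and Camp at 46.4 and 53.4. At least 1 Defa5 UMI was found in 64.0% of B-gate cells in distraction and 47.4% in sham, at median depths of 3425 and 2912 UMIs. Thinned to 2000 UMIs per cell, the shares were 38.6% of 1098 cells and 30.2% of 2181. In the early gate the thinned shares were 93.5% of 153 cells and 91.4% of 70. In sham, 28 B-gate cells with at least 1% defensin UMIs held 29.5% of the gate's defensin UMIs, and in distraction 3 cells held 1.496%. Without them the B-gate level of the 5 defensins was 719 CPM in distraction and 529 in sham, against 729 and 746 with them.

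With all B-gate cells counted, mature-gate cells were close to that level for the defensins and not for Camp. Defa5 in the mature gate was 1.29 times the B-gate level in distraction (1.13 to 1.46) and 1.20 times in sham (1.01 to 1.43). Camp in the mature gate was 22.9 times the B-gate level in distraction and 17.4 times in sham. In the erythroid and stromal-vascular gates Defa5 was between 0.547 and 1.04 times the B-gate level, and in the monocyte-macrophage gate 1.38 times in distraction and 0.450 times in sham.

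Over whole libraries the 6 genes were all higher in distraction. The ratio of distraction to sham CPM was 2.37 for Defa5, 2.14 for Np4, 2.41 for RatNP-3b, 2.82 for Defa11, 2.79 for Defa10 and 1.62 for Camp. A gene was called higher or lower where the ratio was at least 1.5 either way, its 95% counting interval lay on 1 side of 1, and both libraries together held at least 30 counts. All 6 members were called higher, where 7.23% of the 12935 genes tested were. The whole-library ratio combines how many cells of a stage were present with the level within it. The 6 stages made up 31.2% of the cells in distraction and 15.1% in sham, the progenitor gate 3.07% and 1.91%, and the early gate 3.81% and 1.37%. Of all Defa5 UMIs, the progenitor gate held 31.8% in distraction and 28.6% in sham, and the early gate 47.9% and 44.0%. Cells in no gate held a further 13.7% and 16.5%.

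Over the 6 stages together, Defa11 (1.57) and Defa10 (1.59) were called higher, where 1.77% of genes were, and the other 4 members were not called. In the early gate, where the defensins were highest, the ratio of the 5 summed defensins was 1.04 (1.03 to 1.05) and that of Camp 0.879 (0.863 to 0.896). No member was called in the early gate, where 8.56% of genes were called in either direction. In the secondary gate the ratios were 0.957 and 1.02, and no member was called (8.96% of genes were). In the mature gate they were 1.12 and 1.14, and again no member was called (10.2% of genes were). In the progenitor gate the defensin ratio was 1.37 (1.36 to 1.38) and that of Camp 0.917. Defa10 was called higher there, with a ratio of 1.85 (1.40 to 2.48), against 2.84% of genes called higher, and the other members were not called. Median depth in the progenitor gate was 29730 UMIs in distraction and 13172 in sham. Thinning to 2000 UMIs kept only cells with at least that many, 114 of 124 in distraction and 64 of 99 in sham. Depth and the set of cells thus both changed, and their parts were not tested. In the thinned cells the defensin ratio was 1.15. With Leiden clusters in place of gates it was 1.95 for the defensins and 1.53 for Camp, both called, and with a stricter gate that of Camp was 1.56.

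In the tertiary gate the defensins were called higher in distraction, with ratios of 3.17 for Defa5, 2.46 for Np4, 2.12 for RatNP-3b and 2.43 for Defa11, where 3.78% of genes were called higher. These sums rested on few cells: 1 cell held 24.4% of the Defa5 UMIs of the gate in distraction and 1 cell held 46.0% in sham. As the mean over cells the ratio of the 5 defensins was 1.29 in place of 2.40, and with a marker on only at 2 per 10000, an alternative chosen after seeing the data, it was 0.740. Without the cell holding most counts in each library it was 2.68. Of 8 cell cycle genes tested in the gate, 4 were called higher in distraction, Mki67 with a ratio of 2.87 and Top2a with 2.32 among them, and their part in the result was not tested. In the late gate Defa5, Np4 and RatNP-3b were called higher (1.69, 1.76 and 2.78), where 2.8% of genes were. As the mean over cells that gate gave a ratio of 1.24 for the 5 defensins in place of 2.15, and with 1 more marker required 8.18. Camp was called in no stage, and its ratios in the tertiary and late gates were 1.10 (1.07 to 1.13) and 1.06 (1.04 to 1.09).

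**Figure D5:**
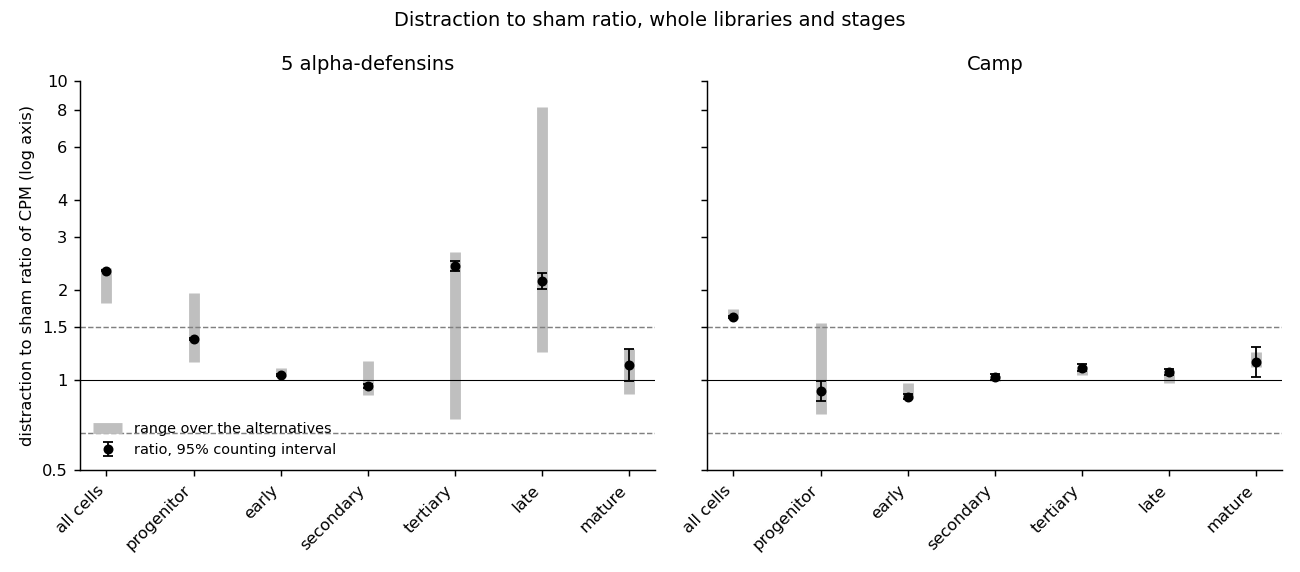
Distraction to sham ratio of CPM (log axis) of the 5 summed alpha-defensins (left) and Camp (right) in all cells and in each stage; points show the ratio with its 95% counting interval, grey bars the range over the processing alternatives and dashed lines the call threshold of 1.5 either way. Both are above 1.5 over all cells, the early, secondary and mature gates lie between 0.879 and 1.14, and the grey bar of the tertiary gate crosses 1 for the defensins.

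In the monocyte-macrophage gate (134 and 118 cells) Defa5, Np4 and RatNP-3b were called higher in distraction, with ratios of 3.06, 2.47 and 2.94, where 3.6% of genes were. Levels were low, at 330 and 108 CPM for Defa5. A single cell held 40.0% of the Np4 UMIs in distraction and another 32.4% in sham. The neutrophil genes S100a8 and S100a9 were called higher in the same gate, with ratios of 1.68 and 2.64, and their part in the result was not tested.

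The other genes of granules and of granulocyte development, from lists fixed with earlier results known, were mostly called higher over whole libraries. Of all genes tested there, 7.23% were called higher. Of primary granule genes, 9 of 10 tested were called higher over all cells, none lower, with a median log2 ratio of 0.998 against -0.17 for all genes tested. Ms4a3 led with a ratio of 3.01, then Elane with 2.34 and Prtn3 with 2.25. Of secondary granule genes, 6 of 10 were called higher, with a median of 0.67, led by Olfm4 (2.35). Of tertiary granule and mature genes, 10 of 11 were called higher and 1 lower, where 13.1% of all genes were lower. Of 10 other antimicrobial genes tested, 6 were called higher, among them S100a8 (1.93) and S100a9 (2.03). Over the 6 stages together, 1 of 10 primary granule genes (Ms4a3, 1.75), none of 10 secondary and none of 11 tertiary and mature genes were called higher. Of all genes, 1.77% were called higher over these stages. Within single stages more were called, but the lists are too short to set 1 call apart from the share over all genes. In the progenitor gate 2 of 10 primary granule genes (Ms4a3, 1.87, and Serpinb1a, 1.60) and 1 of 9 secondary ones were called higher. Of 9 other antimicrobial genes there, 1 was higher (Rnase2, 2.45) and 1 lower, where 2.84% of all genes were called higher. In the early gate 1 of 9 primary and 2 of 10 secondary granule genes (Olfm4, 1.81, and Hp, 1.68) were called higher. Of 10 tertiary and mature genes there, 1 was higher and 4 lower, where 8.56% of all genes were called in either direction. In the secondary gate 2 of 10 secondary granule genes (Olfm4, 1.72, and Ngp, 1.71) and 2 of 8 tertiary and mature genes were called higher. Of all genes, 8.96% were called there in either direction. In the tertiary and late gates no gene of these 3 granule lists was called, where 3.78% and 2.8% of all genes were higher. In the mature gate 1 of 4 primary granule genes was higher and 1 of 9 secondary ones lower, against 10.2% called in either direction.

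Of 10 granulocyte transcription factors, 3 were called higher over all cells and 2 lower, where 7.23% and 13.1% of all genes were. Those higher were Cebpa (1.54), Cebpe (14.0 and 6.65 CPM) and Klf5 (39.2 and 22.8 CPM), the last 2 named after their values were seen, and those lower were Gfi1 (0.481) and Myb (0.522). Gfi1 stood at 129 and 164 CPM in the B gate and at 41.5 and 40.3 in the progenitor gate. Of the genes that cut or sense cathelicidin, Prtn3 and Elane were called higher over all cells, as above. Fpr2, a formyl peptide receptor that cathelicidin peptides activate, was highest in the tertiary gate at 313 and 270 CPM. None of 11 cell cycle genes was called over all cells.

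Genes were ranked by likeness to each member, as Pearson's r of log2(CPM + 1) over 20 points, which are 10 gates in both libraries, among 9470 genes. The 3 genes most like each defensin were other defensins, with r from 0.977 to 0.995. Among other genes Chrdl2, which encodes a chordin-like secreted protein, came first for all 5, with r from 0.965 to 0.982. Htra2, a mitochondrial protease gene, followed for Np4 (0.953) and RatNP-3b (0.959), Far2 for Defa5 (0.953), and Ms4a3 for Defa11 (0.946) and Defa10 (0.9402). The genes most like Camp were Orm1, an acute phase plasma protein gene, with r of 0.985, Ugt8 (0.981) and Tesc (0.980). Camp itself had an r of 0.551 to 0.708 with the defensins. The points share libraries and the gate rule, and may share free RNA, which was not measured, so these are descriptions.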

How the data were processed

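UMI counts per cell and gene were deposited by the authors as 1 table per library, made with the BD Rhapsody whole transcriptome pipeline 1.5.1 per the file headers. The submitters' processing notes name Rnor 6.0 and Seurat 3.6 without their role. Cells with at least 500 UMIs, 200 genes and under 25% mitochondrial UMIs were kept (4037 of 4889 and 5183 of 5351), with 31202493 and 29488955 UMIs. The members and lists were chosen with earlier results of these data known. The marker scoring rule was set after the data, members included, had been seen. Cells of more than 1 gate (127 and 160) were set aside, and no doublet caller was run. Of gene symbols starting with Np, only Np4 was counted as a defensin. Counts were summed per gate and scaled to CPM, with exact 95% Poisson intervals, and ratios have exact conditional binomial intervals. UMIs are not scaled by gene length. Floors are 3 counts per gate. Genes named are the members, the 3 genes most like each (at least 200 UMIs), and up to 4 called genes with the largest ratio per list at 50 CPM or more. Python 3.11.15, numpy 2.4.6, scipy 1.17.1 and scanpy 1.11.5 were used, and the ratio code was tested on simulated data. Alternatives covered cell filters, gates, Leiden clusters, scaling, thinning and call thresholds. A marker of the mature gate is not reported here by name.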

Additional observations from a re-analysis of the deposited data

Results flagged for a closer look

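Some cells in no gate held a strong defensin signal. Of the ungated cells, 38 in distraction and 49 in sham had at least 1% defensin UMIs. The 5 alpha-defensins summed to 248326 CPM in the 38 and 244080 CPM in the 49. These cells were picked by their defensin share, so this level follows in part from the choice and is not comparable with that of a gate. Their median depth was 10084 and 1844 UMIs, Camp stood at 6166 and 9326 CPM, S100a8 at 31629 and 34028, Mpo at 3263 and 1505, and Ngp at 41.4 and 49.4. Of these cells, 29 and 26 had 1 secondary granule marker on and 14 and 11 had 1 progenitor marker on. In the other 658 and 993 ungated cells the 5 defensins stood at 666 and 608 CPM.

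Camp in the eosinophil gate, at 2435 CPM in distraction and 4425 CPM in sham, stood above the 46.4 and 53.4 CPM of the B gate. The gate was too small for a comparison between the libraries.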

How the results depend on the processing

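No paired analysis was possible because each group is 1 library. With a marker on only at 2 per 10000, an alternative chosen after seeing the data, the tertiary-gate ratio of the 5 defensins went from 2.40 to 0.740, with Defa5 at 0.660, Np4 at 0.747, RatNP-3b at 0.782 and Defa11 at 0.543. As the mean over cells the 5 defensins gave 1.29 in the tertiary and 1.24 in the late gate, and Defa11 in the tertiary gate 0.670. Thinned to 2000 UMIs, in cells with at least that many, they gave 1.30 and 1.25, and Np4 in the late gate 0.960. Leiden clusters gave 1.95 for the defensins and 1.53 for Camp in the progenitor gate, and a stricter gate gave 1.56 for Camp there and 2.88 for the defensins in the B gate. With scaling less the members' UMIs, Camp in the secondary over the early gate of sham went from 1.60 to 1.40. At a call ratio of 2, list genes called higher over all cells went from 33 to 10, over the 6 stages from 3 to 1, and those lower over the 6 stages from 1 to 0; with at least 10 counts, those lower over all cells went from 4 to 7. The causes were not tested. Of the values that answer a comparison, 141 alternatives left the call or count in place, 5 weakened it, 3 strengthened it, 4 moved a count and 1 reversed it. For single genes these were 409 in place, 15 weaker, 20 stronger and 6 reversed. Sums of few rich cells limit the tertiary, late and monocyte-macrophage gates, and intervals cover counting error only.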
